A study of Mus musculus with 18 samples.

Results

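Many transcribed stretches of the mouse genome carry no gene name of their own although they lie in a region that also holds a named gene. In the locus table of Neuro2A cells, 115957 of 168136 loci had no symbol, and 4936 of these overlapped, by at least 1 base on the same chromosome and on either strand, the listed interval of a locus with a symbol. The 937 loci described here were selected on their measured level, as those of the 4936 whose normalized counts averaged 10 or more across the 18 samples. They are called unnamed loci below, and the overlapping named locus with the highest mean in the same region is called the host. All 937 had exactly the interval of a named locus, because the table lists the interval of a whole region for each locus in it. Their exact place within the region is therefore unknown, and unnamed loci of 1 region are not independent measurements.

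Neuro2A (N2A) cells are an established line derived from a neuroblastoma of the mouse. Wild-type cells were labelled Control, Scramble (Scr) or *miR-92b*, and each treatment was sampled as a nuclear fraction and as whole cell lysate, which contains the nuclei too, giving 6 groups of 3 samples. The transfected cells received mimics that carry biotin at 25 nM, and RNA was collected on streptavidin beads and selected again with oligo-dT, so that a count reflects both the amount of an RNA and its recovery. The labels do not say more of Control, but the study describes the control cultures of its pulldown check as untransfected, and in such cells the beads would have no mimic to bind. An average over the 3 treatments therefore mixes samples with and, as far as described, without a bait. Nothing in the labels says that the 3 samples of a group were separate cultures, so p-values measure the spread between these samples, which may be technical. An amount of RNA per nucleus and a number of nuclei cannot be told apart in such samples.

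When a gene is transcribed, its introns and any RNA that starts or ends inside or beside it are copied as well. Spliced mRNA is exported to the cytoplasm, whereas unspliced RNA, excised introns and many long noncoding RNAs stay in the nucleus. Assembly of sequencing reads into transcripts can place such RNA in loci that match no annotated gene. MiRNAs are cut from longer primary transcripts that are made in the nucleus, and a mature miRNA binds other RNA mainly through its seed, bases 2 to 8.

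Sequences are shown for the bait of the pulldown and for miRNAs whose symbols are in the regions of the unnamed loci. They are from RefSeq (GRCm38.p6), are written 5′ to 3′, and have the seed in capitals.
miR-92b-3p: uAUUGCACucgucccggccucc
miR-195b: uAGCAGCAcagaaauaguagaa
miR-6379: uCCCUGGAguuuuacagcuaga
miR-6402: gAGCAGUUuucccaggaacccgc
let-7c-5p: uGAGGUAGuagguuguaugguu
miR-344-5p: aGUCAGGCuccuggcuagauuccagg
miR-344g-5p: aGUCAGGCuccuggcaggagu
None of these has the seed of *miR-92b-3p*. *miR-344-5p* and *miR-344g-5p* have the same seed. The region of *Mir195b* (chr2:56778006-57010491) held 16 unnamed loci, all on the minus strand, while RefSeq has *miR-195b* at chr2:56785825-56785846 on the plus strand. The region of *Mir6379* (chr3:46856824-47018558) held 14 and that of *Mir344-2*, *Mir344f*, *Mir344g* and *Mir344i* (chr7:61929756-62086273) held 9, all on the strand of the miRNAs. That of *Mirlet7c-2* held 3, of which 2 were called higher in the comparison below. A mature miRNA has no poly(A) tail, so these oligo-dT libraries do not measure the mature miRNAs.

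The reads in the table numbered between 4188987 and 25621919 per sample. Neuroblastoma genes such as *Hand2*, *Gata2* and *Th* were present in every sample, while immune and epithelial markers (*Ptprc*, *Epcam*, *Krt18*) were at 0 or near it. *Malat1*, a nuclear long noncoding RNA, had mean normalized counts of 91674 in nuclear and 44593 in whole cell samples, against 1007 and 5477 for *Gapdh*, a glycolytic enzyme with a cytoplasmic mRNA. The third whole cell *miR-92b* sample stood apart in the results below.

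The unnamed loci lay in 208 regions, from 2823 to 898312 bases long (median 87282). In 84 regions there was 1 such locus, and 29 regions with 10 or more held 471 of the 937. The highest number, 43, was in the region of the pseudogenes *Gm9655* and *Gm8167* on chromosome 8. Most unnamed loci had few reads, with a median mean of 32.2 and quartiles of 16.6 and 80.0, whereas the highest mean was 13285. The 5 regions with most reads carried 63.9% of the counts of all 937, and the *Gm9655* region alone 31.4%. In 43 of 208 regions the unnamed loci together outweighed the named ones.

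The unnamed loci shared features that did not enter their selection. On the strand of the host lay 856 (91.4%) and on the opposite strand 81. The host was protein-coding for 553, classed as long noncoding for 140, a small RNA for 109, a pseudogene for 86 and not in GENCODE M21 for 49. The class of long noncoding hosts includes genes annotated only as to be experimentally tested, such as *Gm9930*. For 501 of the 937, annotated genes covered under 50% of the region on either strand. Of the 208 hosts, 19, with 123 unnamed loci, bore a symbol whose annotated gene is on the other strand. An example is *Gm9655*, annotated on the plus strand, where a locus of that name had a mean of 621, while the locus of that name on the minus strand, the host, had 14577. The ratio of count to FPKM implies a transcript length, with a median of 1765 nucleotides for the unnamed loci against 2554 for tested named loci and 1603 for the other tested unnamed loci. Level, in contrast, did enter the selection, and the host is by definition the named locus with the highest mean of its region. A level below that of the host is thus largely set by this choice. Per length, the median level of the unnamed loci was 2.38 FPKM and that of their hosts 14.8 FPKM, and 70 of 937 exceeded their host.

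The share of all reads that fell on the unnamed loci was higher in most nuclear samples. It was 2.47%, 3.23% and 2.40% in nuclear Control samples, 2.23%, 2.58% and 2.96% with Scr and 1.91%, 2.95% and 3.17% with *miR-92b* (samples 1 to 3 in each). In whole cell samples the share was 1.44%, 1.50% and 1.53% for Control, 1.99%, 1.81% and 1.81% for Scr and 1.91%, 1.78% and 0.702% for *miR-92b*. The means were 2.66% ± 0.45 (SD, n = 9) and 1.61% ± 0.39 (SD, n = 9), and 1.72% without whole cell *miR-92b* sample 3. The ranges overlapped, because nuclear *miR-92b* sample 1 lay below whole cell Scr sample 1. No test was made of this share, since its members were chosen.

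The number of unnamed loci with at least 1 read also varied within groups. It was between 920 and 931 in nuclear *miR-92b* samples, but 919, 669 and 733 in nuclear Scr samples and 804, 719 and 502 in whole cell *miR-92b* samples. Only 286 of the 937 had reads in all 18 samples, and 622 were at 0 in at least 1 whole cell sample. This means that many single values below rest on few reads.

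**Figure D1:**
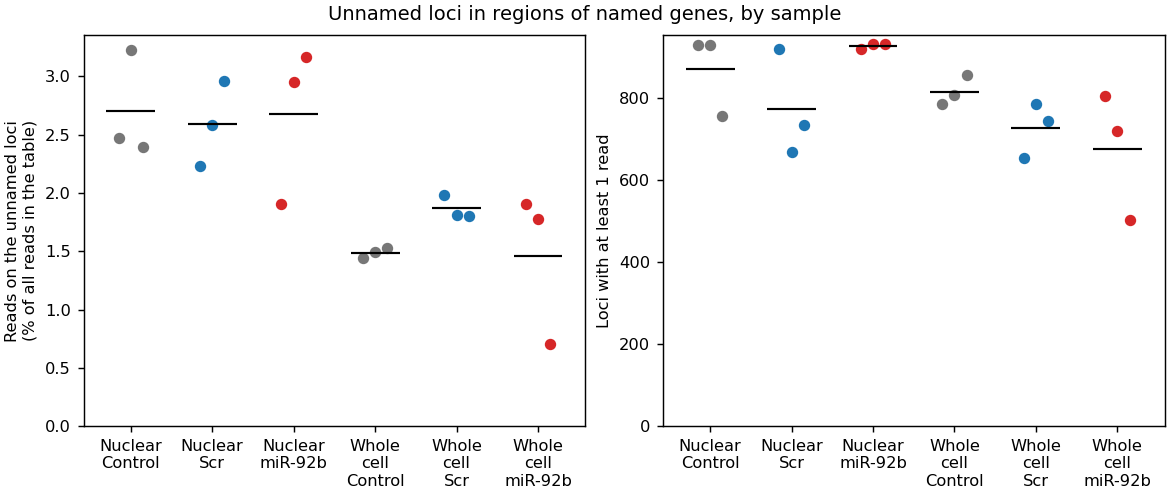
The left panel plots the percentage of all reads that fell on the 937 unnamed loci and the right panel the number of them with at least 1 read, each point being a sample and each line the mean of 3. The nuclear groups have means of 2.59% to 2.70% and the whole cell groups of 1.46% to 1.87%, with whole cell *miR-92b* sample 3 lowest in both panels.

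Nuclear and whole cell samples were compared to ask which of these RNAs are found at higher levels in the nucleus. Averaged over the 3 treatments, 209 of 937 unnamed loci (22.3%), in 75 regions, were higher in nuclear samples and 0 were lower by limma at an adjusted p below 0.05. Of all 21010 loci tested, 15.3% were called higher and 11.3% lower. At an unadjusted p below 0.05, 335 unnamed loci were higher and 0 lower, against 24.5% and 14.5% of all loci. DESeq2 called 208 higher and 1 lower, against 13.8% and 13.4% of all loci, and edgeR 146 higher and 0 lower, against 9.88% and 12.6%. Without a filter on low values limma called 133, against 1.52% of the 144272 loci then tested. Without whole cell *miR-92b* sample 3 the unnamed loci had a median change of 0.73, with 191 called higher and 1 lower. Over all 21010 loci the median was then 0.26, with 2963 called higher and 2205 lower.

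The median log2 change, nuclear over whole cell, was 0.91 for the unnamed loci (quartiles 0.53 and 1.50, range -1.78 to 3.35). The median of all loci tested was 0.36 on this log2(normalized count + 1) scale, so the unnamed loci were 0.55 above it. The change varied with level. With means of 10 to 20 the medians were 1.07 for the unnamed and 0.92 for all loci, while with means of 20 to 50 they were 1.04 and 0.75. These levels hold 308 and 277 of the 937. It was 0.14 for loci with a symbol and 0.99 for the 4494 other unnamed loci, which lie outside such regions. Above 0 were 849 of the 937 (90.6%), 56.6% of named loci and 86.8% of the other unnamed loci. The sizes depend on scaling. With all samples set to the same median the unnamed loci had a median of 0.82 with 174 called higher and 0 lower, while the calls over all loci turned from 3224 higher and 2384 lower to 2460 and 2763.

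Calls were more frequent at higher levels. Of the 308 unnamed loci with a mean under 20, 24 (7.79%) were called, against 67 of 240 (27.9%) between 50 and 200 and 91 of 112 (81.2%) from 200 up. The shares called higher among named loci were 5.98% under a mean of 20 and 24.3% from 200 up, and among other unnamed loci 8.40% and 80.2%. All 112 unnamed loci with a mean of at least 200 had a change above 0, with a median of 0.80.

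**Figure D2:**
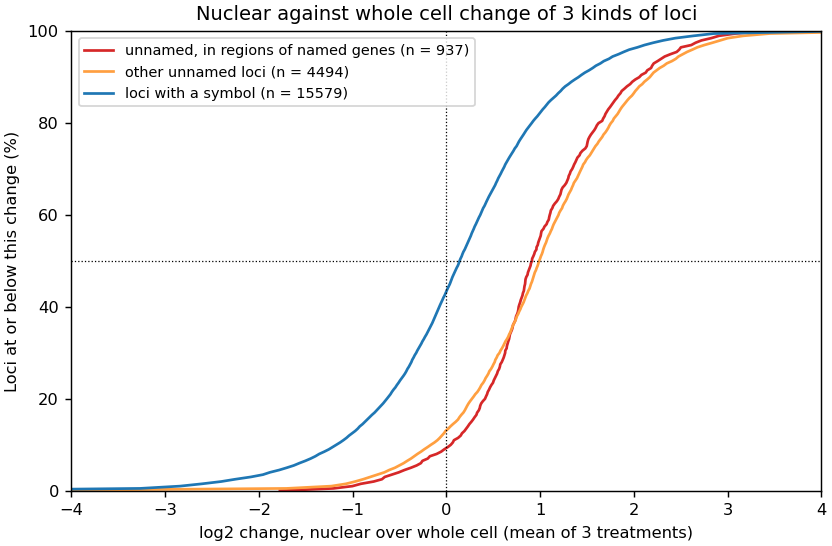
Cumulative distributions of the log2 change, nuclear over whole cell and averaged over 3 treatments, are plotted for 937 unnamed loci in regions of named genes, 4494 other unnamed loci and 15579 loci with a symbol, with the percentage of loci at or below each change on the vertical axis. Both curves of unnamed loci lie to the right of that of named loci, with medians of 0.91 and 0.99 against 0.14.

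The selection by mean level could favour loci that are high in 1 compartment only. Of the 937, 144 had a mean of at least 10 in nuclear but not in whole cell samples, among them 30 of the 209 called, and 20 had it in whole cell samples only. Just inside the limit were XLOC_110564, with a mean of 10.02, and XLOC_044275, with a mean of 10.03. Just outside were XLOC_080797, with a mean of 9.998, and XLOC_105055, with a mean of 9.988.

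The unnamed loci with the highest levels came from 4 regions. XLOC_149715, in the *Gm9655* region (chr8:82576000-82757987, minus strand), had normalized counts of 14087, 21116 and 15849 in nuclear Control, 12322, 18419 and 21433 in nuclear Scr and 10177, 19670.1 and 20888 in nuclear *miR-92b* samples. In whole cell samples it had 8046, 8556 and 9526 for Control, 11173, 10824 and 11258 for Scr and 10408, 10109.7 and 5266 for *miR-92b*. The compartments overlapped in nuclear *miR-92b* sample 1, and the log2 change of 0.84 ± 0.15 (SE, n = 9 per compartment) was called by limma (adjusted p = 0.000180). XLOC_149707 (log2 change 0.73 ± 0.19, limma adjusted p = 0.00540) and XLOC_149718 (0.81 ± 0.15, limma adjusted p = 0.000201) of the same region were also higher in nuclear samples. In all, 35 of the 43 unnamed loci in this region were called higher, with a median change of 0.83, and their host with a change of 0.93.

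A pair of regions close to each other on chromosome 10 held further loci of high level. In the region of *Gm9930* (chr10:9514684-9610479), a gene annotated only as to be experimentally tested, XLOC_015317 ranged from 5615 to 11064 (median 9777) in nuclear and from 2099 to 5931 (median 4899) in whole cell samples. Its log2 change was 0.93 ± 0.16 (limma adjusted p = 0.000146), and that of XLOC_015318 was 0.84 ± 0.17 (limma adjusted p = 0.000594). Of the 14 unnamed loci there, 13 were called higher. In the region of *RP24-226H19.1* (chr10:9236487-9472640), which has no entry of that name in GENCODE M21, XLOC_015302 had normalized counts of 3973, 5479 and 5526 in nuclear Control, 4075, 5199.8 and 6067 in nuclear Scr and 3854, 4993 and 5484 in nuclear *miR-92b* samples. Its whole cell values were 2287, 2287 and 1796, then 3270.2, 2741 and 2120.3, then 2849.8, 2299 and 995, in the same order. All 9 nuclear values lay above all 9 whole cell values, with a log2 change of 1.16 ± 0.16 (limma adjusted p = 4.71e-06).

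The *Mir195b* region gave smaller changes. XLOC_089536 ranged from 2504 to 6059.9 (median 4619.7) in nuclear and from 1284 to 4097 (median 2917) in whole cell samples, with a log2 change of 0.69 ± 0.17 (limma adjusted p = 0.00378). XLOC_089516 had a log2 change of 0.71 ± 0.21 (limma adjusted p = 0.0134), which limma on FPKM did not call (adjusted p = 0.0738). Of the 16 unnamed loci 6 were called higher, with a range of -0.68 to 1.72, and the host changed by 0.64 (limma adjusted p = 0.0241).

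In 21 unnamed loci (2.24%) the 9 nuclear values all lay above the 9 whole cell values, and in 0 below. This was so for 2.74% and 3.27% of all loci tested, so the share was near the background. The 6 with the largest changes among the 21 came from 6 regions. XLOC_155464, in the region of *RP23-373F11.1* on chromosome 9, had normalized counts of 44.8, 64.5 and 195 in nuclear Control, 88.4, 69.1 and 82.0 in nuclear Scr and 60.1, 77.8 and 74.6 in nuclear *miR-92b* samples. In whole cell samples it had 0, 21.6 and 11.7, then 25.4, 25.3 and 30.6, then 35.1, 0 and 38.9. Its log2 change was 2.62 ± 0.73 (limma adjusted p = 0.00921), and 2 of the whole cell samples were at 0, so the fitted size depends on the pseudocount.

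XLOC_099531 in the *Mir6379* region ranged from 38.1 to 148 in nuclear and from 0 to 33.8 in whole cell samples (log2 change 2.06 ± 0.60, limma adjusted p = 0.0124), while its host changed by 0.71. XLOC_090225, the only unnamed locus in the region of *Gm13716* (chr2:85160778-85229529), ranged from 388 to 710.4 in nuclear and from 68.8 to 374 in whole cell samples. Its log2 change was 1.51 ± 0.27 (limma adjusted p = 0.000143) beside 1.33 for the host. Here as well *Gm13716* is annotated on the plus strand and both loci lay on the minus strand.

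The other 3 lay in regions of a zinc finger gene, of *RP24-226H19.1* and of a neuronal gene. In the region of *Zfp458* (chr13:67227801-67269068), which encodes a zinc finger protein, XLOC_041707 had normalized counts of 429, 337 and 437 in nuclear Control, 375, 445 and 615 in nuclear Scr and 399, 399.7 and 364 in nuclear *miR-92b* samples. The whole cell values were 121, 173 and 158, then 170.1, 197 and 254, then 211, 113 and 116, and the log2 change was 1.35 ± 0.18 (limma adjusted p = 2.85e-06). XLOC_015289 in the *RP24-226H19.1* region changed by 1.30 ± 0.25 (limma adjusted p = 0.000439). XLOC_110348 lay in the region of *Elavl2* (chr4:91207325-91400785), an RNA-binding protein of neurons, which also holds *Mir6402*. It ranged from 157 to 354 in nuclear and from 31.2 to 145 in whole cell samples, a log2 change of 1.24 ± 0.27 (limma adjusted p = 0.00125), and *Elavl2* itself changed by 0.73 (limma adjusted p = 4.95e-06).

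**Figure D3:**
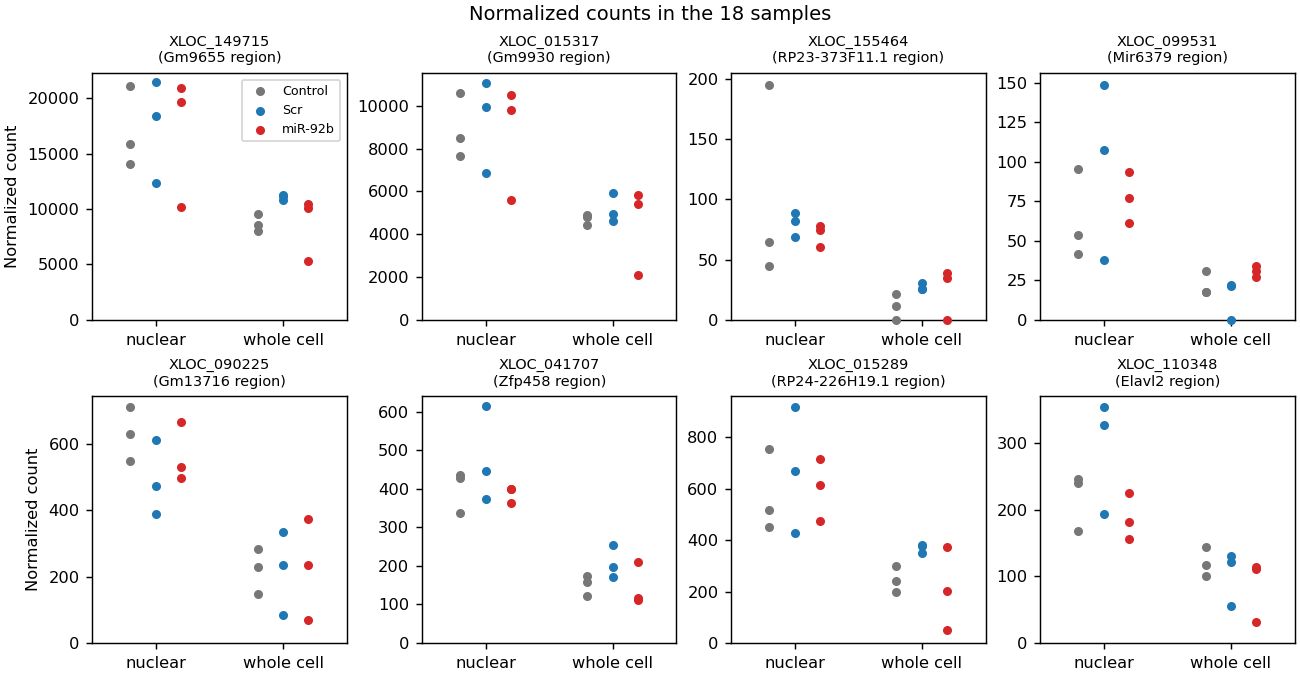
Normalized counts in the 18 samples are shown for the 2 unnamed loci with the highest mean and the 6 with the largest changes among those without overlap, each panel having its own vertical axis from 0. In the panels of the 6 every nuclear point lies above every whole cell point, while for XLOC_149715 and XLOC_015317 nuclear *miR-92b* sample 1 lies among the whole cell samples.

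The median change of a region was above 0 in 196 of 208 regions, and in 153 all unnamed loci had a change above 0. Among the 59 regions with at least 5 unnamed loci, the SD of the changes within a region had a median of 0.66. The region with the lowest median among those with 10 or more was that of *Cplx2*, which encodes a regulator of synaptic vesicle release, with 0.34 over 16 loci and 0 called. The highest were those of the small RNA gene *Gm25808*, with 1.67 over 15 loci and 5 called, and of *Efna5*, a ligand of Eph receptors, with 1.65 over 10 loci and 2 called. In the *Klf12* region, named for a transcription factor, 9 of 25 were called with a median of 1.36, and in that of *Foxn3*, another transcription factor, 2 of 23 with a median of 0.83. The region of the cell cycle inhibitors *Cdkn2a* and *Cdkn2b* (chr4:89274471-89569602) had 8 of 19 called, with a median of 0.83.

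**Figure D4:**
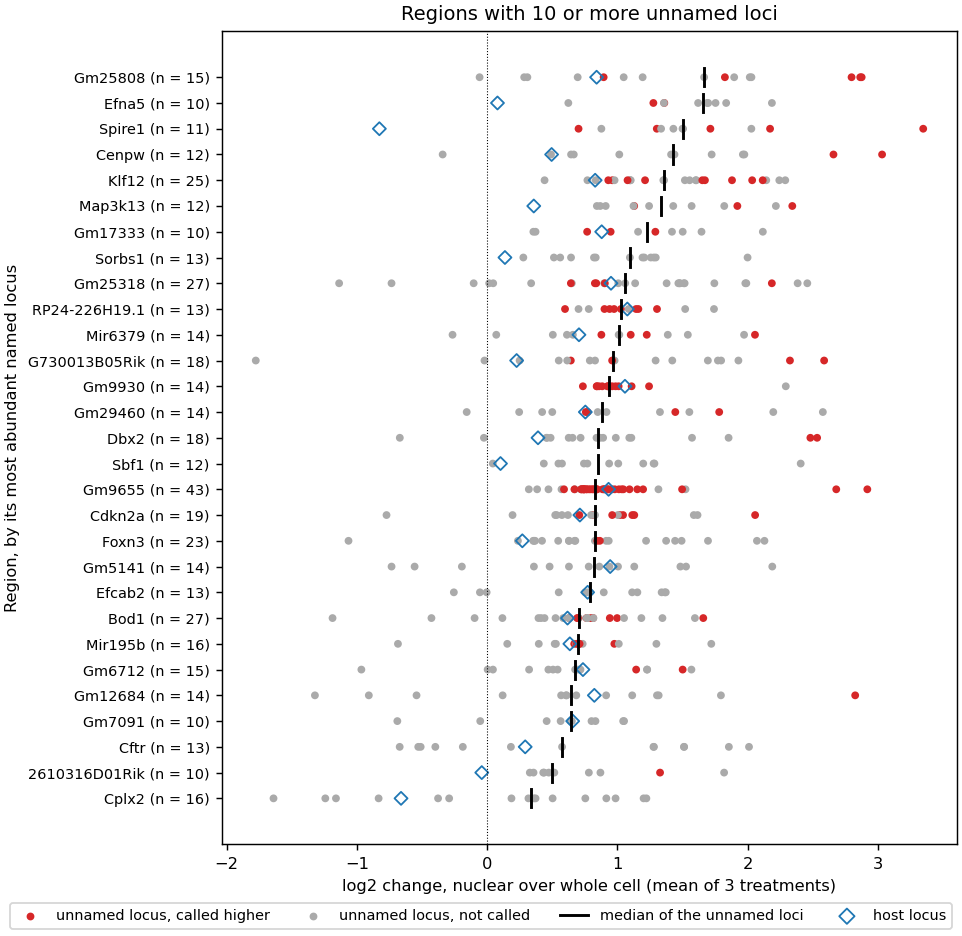
Each row is 1 of the 29 regions with 10 or more unnamed loci, named by its most abundant named locus and ordered by the median log2 change, nuclear over whole cell. Points are unnamed loci, red where limma called them higher, bars are their medians and diamonds are the hosts, and region medians run from 0.34 (*Cplx2*) to 1.67 (*Gm25808*).

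Unnamed loci and hosts were compared to see whether the RNAs of 1 region were distributed alike. Of 923 unnamed loci whose host was tested, 636 (68.9%) had the larger change. The 2 were not matched for level, since the host is the named locus with the highest mean of its region. Among named loci the median change was 0.73 with means of 10 to 20 and 0.02 from 200 up. The medians were 0.91 for the unnamed loci and 0.64 for the hosts counted per unnamed locus, and the median difference was 0.40 (quartiles -0.12 and 1.06). It was 0.26 in Control, 0.09 in Scr and 0.82 in *miR-92b* samples, and with a pseudocount of 8 it was 0.07. Across the 923, which share libraries, regions and hosts, the changes of locus and host had a Pearson's r of 0.11 and a Spearman's rho of 0.09.

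Of the 202 tested hosts, 89 were called higher and 22 lower in nuclear samples. Beside hosts called higher, 159 of 541 unnamed loci (29.4%) were called higher, as were 39 of 302 (12.9%) beside hosts not called, 6 of 80 (7.5%) beside hosts called lower and 5 of 14 (35.7%) beside hosts not tested. Over all loci tested 15.3% were called higher. These shares were not matched for level, on which calls depend. The median changes differed less, with 0.91 beside hosts called higher and 0.98 beside hosts not called. Beside hosts called lower, the 80 unnamed loci had a median change of 0.72 while the hosts had a median of -0.76, and 66 of the 80 were above 0.

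Of the 6 called loci beside a host called lower, 5 lay in the region of *Spire1* (chr18:67483139-67610917), which encodes an actin nucleator. *Spire1* had mean normalized counts of 332 in nuclear and 587 in whole cell samples, a log2 change of -0.83 (limma adjusted p = 0.000230). XLOC_077233, on its strand, had 118, 169 and 122 in nuclear Control, 119, 148 and 140.0 in nuclear Scr and 182, 113 and 135 in nuclear *miR-92b* samples. Its whole cell values were 115, 64.9 and 65.5, then 73.6, 95.2 and 49.8, then 20.7, 100.0 and 0. Only whole cell Control sample 1 reached the nuclear range, and the log2 change was 1.71 ± 0.55 (limma adjusted p = 0.0225), not called by edgeR (adjusted p = 0.101) or DESeq2 (adjusted p = 0.0612). XLOC_077225 changed by 2.17 ± 0.64 (limma adjusted p = 0.0130), with overlapping ranges. The log2 changes of the 11 unnamed loci in this region were all above 0, from 0.70 to 3.35. The 3.35 belongs to XLOC_077222, which was at 0 in 8 of 9 whole cell samples and passed the mean of 10 through its nuclear values, of which nuclear Scr sample 3 had 134 and the others 0 to 31.6. The sixth was XLOC_021567, on the strand opposite to *Kdm6b*, a histone demethylase (log2 change 2.50 ± 0.89, limma adjusted p = 0.0398), which like the *Spire1* loci other than XLOC_077225 and XLOC_077233 was chosen after its values were seen. Its means were 38.1 in nuclear and 19.0 in whole cell samples, where 3 samples were at 0 and Scr sample 3, with 103, was the highest of all 18, so that the fitted size depends on the pseudocount.

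Large differences from the host also occurred without a call. XLOC_016617 was in the region of a host that joins *Anapc16*, a subunit of the anaphase-promoting complex, and *Ddit4*, a stress-induced inhibitor of mTORC1. It ranged from 31.8 to 125 in nuclear and from 0 to 70.2 in whole cell samples, a log2 change of 1.39 ± 0.59 (limma adjusted p = 0.0845), against -1.22 for the host (limma adjusted p = 1.30e-08). XLOC_049831, in the region of *Dpysl2*, which regulates microtubules in growing axons, had a log2 change of 1.17 ± 0.61 (limma adjusted p = 0.159) against -1.36 for *Dpysl2* (limma adjusted p = 6.13e-07). For both, the value of 0 was that of whole cell *miR-92b* sample 3.

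The opposite pattern, a host higher in nuclear samples and an unnamed locus not, was seen with wide spreads. XLOC_065138 in the region of *Afdn*, which links cell junctions to actin, ranged from 0 to 115 in nuclear and from 16.7 to 155 in whole cell samples, a log2 change of -1.24 ± 0.68 (limma adjusted p = 0.179) against 0.56 for *Afdn*. The changes were -0.97 ± 0.62 for XLOC_065270 (host *Gm6712* and *Zfp97*, limma adjusted p = 0.249) and -0.73 ± 0.55 for XLOC_041561 (host *Gm5141* and *Platr25*, limma adjusted p = 0.329). The last value was 0.43 in Control, 0.41 in *miR-92b* and -3.05 in Scr samples, and -0.13 over the 3 treatments without nuclear Scr sample 2, which was at 0. That sample was also the one at 0 for XLOC_065138, whose change without it was -0.54. XLOC_027946, beside *2900041M22Rik*, had a log2 change of 0.34 ± 0.35 (limma adjusted p = 0.498) and its host one of 1.77. That host had means of 254 in nuclear and 118 in whole cell samples. Whole cell *miR-92b* sample 3 was at 0 for it, against 80.4 to 219 in the other whole cell samples. None of these 4 unnamed loci passed the test.

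**Figure D5:**
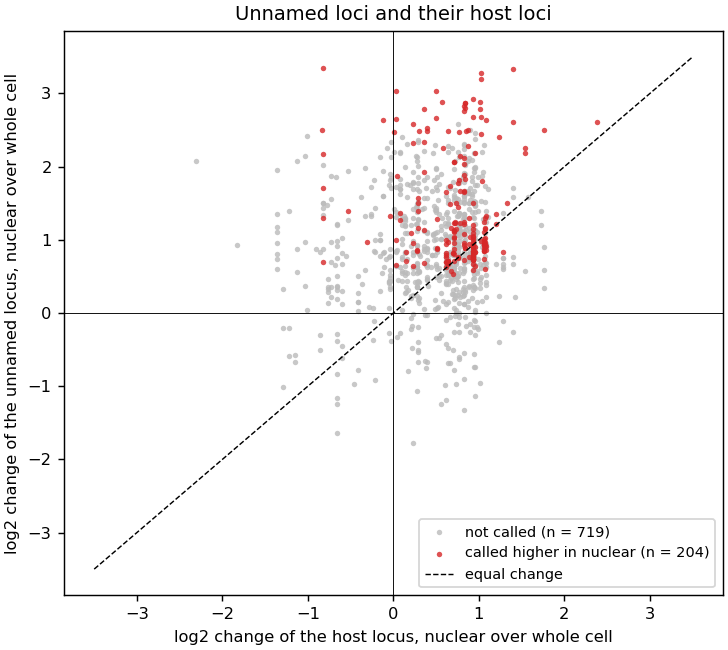
The log2 change, nuclear over whole cell, of 923 unnamed loci is plotted against that of their host, with the dashed line marking equal change. Of the points, 636 lie above the line, and the 204 called ones, in red, all lie above 0 while some of their hosts lie below it.

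The regions were also grouped by lists of symbols, which any named locus of a region could match. No unnamed locus lay in a region of the listed nuclear long noncoding RNAs (such as *Malat1*, *Neat1* and *Kcnq1ot1*), the long neuronal genes, the genes with detained introns or the mitochondrial genome, each with 0 of 937. In 22 regions with a miRNA gene, 19 of 120 unnamed loci (15.8%) were called higher, with a median change of 0.98, and where the host itself bore the miRNA symbol 15 of 57 (26.3%). In the 10 regions with zinc finger genes 11 of 55 were called, with a median of 0.89, and in the 125 regions with provisional symbols 156 of 688 (22.7%), with a median of 0.90. In the 5 regions with a symbol that starts like those of ribosomal proteins (pseudogenes, *Rpl7l1* and the kinase gene *Rps6ka2*) 0 of 20 were called (median 1.35). In the region of *Gas5*, a host gene of small nucleolar RNAs, it was 0 of 4 (median 0.92). The background of 15.3% called higher applies to all of these, none was called lower, and none was tested as a group. By strand, 203 of 856 (23.7%) on the strand of the host were called and 6 of 81 (7.41%) on the opposite strand, with median changes of 0.91 and 0.87 and median levels of 33.5 and 21.1.

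Within each treatment fewer unnamed loci passed. In Control samples 31 were called higher and 0 lower by limma, against 2.57% and 4.66% of all loci tested, with 1 lower at an unadjusted p below 0.05. With Scr 8 were higher and 1 lower, against 0.99% and 2.28%. With *miR-92b* 76 were higher and 0 lower, against 6.39% and 4.71%. The median changes were 0.85, 0.52 and 1.43, beside 0.24, 0.09 and 0.57 for all loci tested, and 527 of the 937 (56.2%) had a change above 0 in all 3 treatments against 36.9% of all loci. Only 2 were called higher in each of the 3.

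These counts rested on single samples. The Control count was 19, 5 and 7 without nuclear Control samples 1, 2 and 3, 11, 11 and 15 without whole cell Control samples 1, 2 and 3, and 85 without whole cell *miR-92b* sample 3. The Scr count of 9 was 23 without nuclear Scr sample 1, 3 without sample 2, 3 without sample 3, 1 without whole cell Scr sample 1, 5 without whole cell Scr sample 3, 5 without nuclear *miR-92b* sample 2 or 3, and 39 without whole cell *miR-92b* sample 3. The *miR-92b* count was 17 without nuclear *miR-92b* sample 2, 15 without sample 3, and 167, 126 and 22 when whole cell *miR-92b* sample 1, 2 or 3 was left out. Over all loci, leaving out whole cell *miR-92b* sample 3 also raised the share called higher, to 6.16% in Control and 4.27% in Scr samples. For *miR-92b* the median change without it was 0.72 in place of 1.43, beside 0.27 and 0.57 over all loci. Calls over all 21010 loci, in either direction, moved as well. Control gave 1520, then 839 without nuclear Control sample 2 and 2631 without whole cell *miR-92b* sample 3. Scr gave 686, then 330 without whole cell Scr sample 1 and 1817 without whole cell *miR-92b* sample 3. Those for *miR-92b* were 2331, then 1094 without nuclear sample 2, 3487 without whole cell sample 1 and 1028 without whole cell sample 3.

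Finally, RNA collected with *miR-92b* was compared with RNA collected with Scr. In nuclear samples 0 unnamed loci were called by limma, edgeR or DESeq2, against 0% of all loci by limma, with 40 higher and 0 lower at an unadjusted p below 0.05 against 3.78% and 0.547% of all loci. The median log2 change was 0.34, and 0.15 over all loci. In whole cell samples limma and edgeR called 0 unnamed loci, against 0.00476% of all loci by limma, and DESeq2 called 10 higher and 14 lower, against 0.838% and 0.819% of all loci. At an unadjusted p below 0.05 limma gave 12 higher and 83 lower, against 3.3% and 6.63%. The median was -0.50, and -0.07 over all loci, but without whole cell *miR-92b* sample 3 it was 0.09, on the other side of 0, beside 0.03 over all loci. Without whole cell *miR-92b* sample 1, limma called 8 lower there, against 0.624% of all loci, and without nuclear Scr sample 1 it called 2 higher in nuclear samples, against 0.186%, so that both counts were near the share over all loci.

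The difference between *miR-92b* and Scr in the nuclear against whole cell change was called for 0 unnamed loci by limma and edgeR and for 1 by DESeq2, against 0.00476% of all loci by limma and 0.228% by DESeq2. At an unadjusted p below 0.05, 75 had a larger change with *miR-92b* and 1 a smaller one, against 5.6% and 1.88% of all loci. The median difference was 0.87, beside 0.31 over all loci, and without whole cell *miR-92b* sample 3 it was 0.27, beside 0.14 over all loci. The 2 comparisons share their Scr and *miR-92b* samples with this difference.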

How the data were processed

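Poly(A) RNA from pulldowns in 18 Neuro2A samples was sequenced with a stranded kit. Per the labels, the authors used bcl2fastq 2.17, Trimmomatic 0.30, TopHat2 and Cufflinks on GRCm38 (mm10), with an annotation release not given in the sources used here. Their deposited count table holds a signal, in which each sample has its reads scaled by a single size factor. All 635205 values above 0 gave whole reads (within 0.02 reads or a relative 1e-05), and reads of each sample were recovered for depth, edgeR and DESeq2. The deposited FPKM values are relative to length and mapped reads. Tables of the authors' own comparisons (log2 fold changes, p-values) were not used.

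The main test, fixed when raw counts seemed possible, was limma 3.58.1 (two-sided, variance trend, Benjamini-Hochberg adjustment, threshold 0.05) on log2(normalized count + 1), with the 6 groups fitted together, over all 21010 loci with a mean of at least 10. Log2 changes of low loci depend on the pseudocount and on samples at 0, so they can differ from the change between the means. XLOC_110564, for example, had means of 9.63 in nuclear and 10.4 in whole cell samples but a log2 change of 0.91. Alternatives were pseudocounts of 0.5 and 8, other filters, FPKM (pseudocount 0.1), equal sample medians, edgeR 4.0.16, DESeq2 1.42.0, the replicate number as a block, the compared groups alone, and each sample left out. Members and lists were chosen with earlier results of these data known. Hosts and unnamed loci were compared without a test.

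Listed starts were raised by 1, which gave GENCODE M21 intervals for 19492 of 23705 loci of 1 gene. Strand was read from the order of identifiers, which matched GENCODE for 23632 of 23634 such loci. On simulated counts for nuclear against whole cell over 21010 loci, with 200 changed by a log2 of 2, limma recovered 115 with 5 false calls, edgeR 123 with 6 and DESeq2 136 with 83. Loci named are the 8 with the highest mean, the 6 called without overlap and with the largest change, the 4 on each side that differ most from a host (both with a mean of at least 50), called loci of *miR-92b* against Scr, the member with the highest mean in each listed nuclear long noncoding RNA (none), and the 2 on each side of the mean of 10. The number of value columns with no sample assigned was 0.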

Additional observations from a re-analysis of the deposited data

Results flagged for a closer look

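In each set of 9 samples of 1 compartment, the highest and the lowest value were checked against the rest by Dixon's criterion, for the share of reads, the number of loci with a read and the counts of the named unnamed loci. Of 52 such sets 6 held an extreme sample. Chance gives about 1 in 20 for independent sets, but these sets share their samples and some share a region. The 6 can therefore not be set against that rate. Each set mixes the 3 treatments. Whole cell *miR-92b* sample 3 was lowest in 3 of them, with 0.702% of its reads on the unnamed loci, a normalized count of 2099 for XLOC_015317 and one of 1148 for XLOC_015318. Nuclear Control sample 3 was highest for XLOC_155464, with 195, and nuclear Scr sample 3 was highest for XLOC_041707, with 615. For XLOC_099531 whole cell Scr sample 1, listed at 0, was lowest.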

How the results depend on the processing

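The 209 unnamed loci called higher, averaged over treatments, were 133 without a filter, with 144272 loci tested. Leaving out single samples gave 160 to 271. Over all loci the 5608 calls in either direction became 3757 without a filter and 4632 to 6382 without single samples. For Control, the count of 31 became 48 with a pseudocount of 8, 8 with FPKM, 14 with edgeR, 51 with DESeq2 and 124 with the compared groups alone, and 5 to 85 without single samples. Over all loci the 1520 calls became 1785, 1036, 1418, 2149 and 3475, in the same order of settings. For Scr, the 9 became 17 with a pseudocount of 8, 15 with a mean of at least 1, 14 without a filter and 50 with DESeq2, and 1 to 39 without single samples. Over all loci then tested the 686 calls became 866, 798, 780 and 1479. For *miR-92b*, the 76 became 24 with FPKM, 31 with edgeR and 29 with the compared groups alone, and 15 to 167 without single samples. Over all loci the 2331 calls became 1442, 1957 and 977. For *miR-92b* against Scr, leaving out samples gave 0 to 2 in nuclear and 0 to 8 in whole cell samples, where the 0 became 6 with a mean of at least 1, 16 without a filter, 1 with FPKM and 24 with DESeq2. The difference between them became 5 without a filter and 1 with DESeq2. Over all loci the 1 whole cell call of *miR-92b* against Scr became 98, 219, 8 and 348, and the 1 call of the difference 128 and 48. The cause was not tested. The median difference between unnamed locus and host was 0.28 to 0.50 without single samples. The share of reads was 2.42% and 1.45% with a mean of at least 50. Changes of the named loci kept their direction, and 19 values lost and 3 gained the call out of 670.

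Deviations of same-numbered samples were hardly correlated (from -0.05 to 0.10, none above 0.1, median 0.00), though 9 samples correlated best with their own number. This did not settle whether the numbers mark pairs. Nuclear sample 1 had 10.8% (Control), 10.4% (Scr) and 9.96% (*miR-92b*) of its reads on loci without a symbol. Nuclear samples 2 and 3 had 13.1% to 15.3%. Whole cell sample 1 showed no such common shift, with 8.06%, 11.3% and 10.3%, the lowest in Control and the highest in Scr. With the replicate number as a block the counts were 214, 37, 9 and 71 for nuclear against whole cell (all treatments, Control, Scr, *miR-92b*) and 0 for the 3 comparisons with Scr. Depth limits loci near the mean of 10, of which 1 sample may hold most reads.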
